A study of Saccharomyces cerevisiae with 10 samples.

Results

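The genes encoding the protein part of the small (40S) subunit of the cytosolic ribosome were followed through RNA-seq of budding yeast that lacked or overexpressed Jhd2, the histone H3 lysine 4 demethylase of this yeast. Members were all features whose gene name was RPS, a number and an optional copy letter A or B, which gave 56 of the 7041 features in the deposited tables. They encode 32 proteins from 24 paralog pairs (48 genes) and 8 single genes (among them RPS2, RPS3, RPS12, RPS13, RPS15, RPS20 and RPS31), and lie on 14 chromosomes. By the place of the protein in the subunit, 22 genes belong to the head, 28 to the body and 6 to the platform. The study set strains without JHD2, or with extra JHD2, against their controls in media that differ in nitrogen and carbon source, to ask how the demethylase affects transcript levels under changed nutrition.

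All strains were labelled BY4742, a haploid laboratory strain. In YAD, a medium with ammonium and glucose, jhd2Δ cultures of mating type a were compared with WT cultures of mating type alpha (3 replicates each). In YGD, with glutamate and glucose, the same strain pairing was used (3 each), so that mating type and the deletion cannot be told apart in either medium. In YAR, with ammonium and raffinose, jhd2Δ and WT were both of mating type a (2 each). A further pair in YAR carried JHD2 on a pAD4M plasmid, driven by the constitutive ADH1 promoter (OE), or the empty plasmid (EV), both labelled mating type alpha (3 each). For OE against EV in YAD, and for EV in YAR against EV in YAD, the authors' group values alone were used. Replicates are the separate cultures that the study's methods describe, each a column of a table, and each pair of groups was normalised in a table of its own.

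Each ribosome carries 1 copy of nearly every small subunit protein, and yeast makes these proteins from some of its most abundant mRNAs. Transcription of the genes depends on the activator Rap1, which recruits Fhl1, Ifh1 and Sfp1 to the promoters, and it responds to nutrients through the TOR and protein kinase A pathways. Many of the genes exist as A and B copies left by the whole-genome duplication, and many hold an intron, which is rare among yeast genes. Some are tuned by their own products: Rps14 represses splicing of RPS14B, Rps9 acts on the RPS9A intron, the intron ahead of RPS22B is cleaved by the RNase III enzyme Rnt1, and Rps28 binds its own RPS28B mRNA and brings in Edc3 for decapping.

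What a row measured differed between tables, and this sets how the YAR values can be read. In the YAD, YGD and OE tables every member row was the coding transcript, whereas in the table of jhd2Δ and WT in YAR, 12 rows kept that model, 35 covered the gene with its coding intron included, and 9 covered an interval of 308 to 557 bases ahead of the start codon. None of these 9 intervals overlapped the open reading frame (0 of 9), and each ended 0 to 15 bases before it. All 9 began with GTATGT and ended in AG, the yeast intron borders, and 8 held TACTAAC, the yeast branch point sequence. The first 20 bases of 7 of them are shown because they carry the finding that these rows are leader introns and not mRNA. They are given 5′ to 3′ on the gene's strand (RefSeq, build R64) with the 5′ splice site in capitals.
RPS22B, chrXII:855878-856434 (plus): GTATGTggacgaggtgtggt
RPS25A, chrVII:534474-534785 (minus): GTATGTatctataaatttga
RPS25B, chrXII:795913-796335 (minus): GTATGTgcagttgattcacg
RPS26A, chrVII:148599-148966 (minus): GTATGTtaacgacacaaaag
RPS26B, chrV:423591-423951 (plus): GTATGTtataagagcgaata
RPS29A, chrXII:898158-898645 (plus): GTATGTaccaagttctattc
RPS29B, chrIV:340811-341219 (minus): GTATGTggaaacgcggattg

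The levels followed this division. In the 9 intron rows the median of the gene means was 47.4 FPKM in jhd2Δ YAR and 54.7 FPKM in WT YAR, against 1210 FPKM in OE YAR and 1511 FPKM in EV YAR, where the rows were coding transcripts (FPKM, fragments relative to the length of the transcript and the size of the library). In the 35 rows that spanned the intron the medians were 352.7 FPKM in jhd2Δ YAR, 207.7 FPKM in WT YAR, 1173 FPKM in OE YAR and 1307 FPKM in EV YAR. In the 12 rows with an unaltered model the 4 medians lay closer, at 2298, 1150, 2027 and 2261 FPKM in the same order of groups. RPS14A, whose row grew from 414 bases of coding sequence to 721 bases with its intron, read 81.5 and 95.1 FPKM in jhd2Δ YAR and 44.3 and 31.9 FPKM in WT YAR, but 4165, 2991 and 3198 FPKM in EV YAR. That gap is far wider than the ratio of the lengths. Tests on the jhd2Δ YAR table were therefore made between its own 2 groups, apart from the difference between media, and the YAR calls are given by row type first. Levels of other tables stand beside them as values without a test.

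A sequence that the choice of members had not used was more frequent ahead of members than ahead of all coding genes. Within 500 bases before the start codon, 23 of the 56 members (41.1%) held at least 1 of the Rap1 cores, CACCC or CATCC followed by any 2 bases and ACA, on either strand, against 235 of 6000 coding genes (3.92%). The core that starts with CATCC was found in 18 members (32.1%, against 1.98% of genes) and the one that starts with CACCC in 11 (19.6%, against 2.22%). The 30 matches lay 190 to 482 bases before the start codon, with a median of 332. The Abf1 core, TCA and ACG set 6 bases apart, and the PAC motif GATGAG, counted in the same way, were each found in 12 members (21.4%), against 22.7% and 28.2% of all genes. Among the genes of the large subunit, 34 of 82 (41.5%) held a Rap1 core. Matches at 4 members described below are shown 5′ to 3′ in the direction of the gene (RefSeq, build R64), with the 10-base core in capitals and the coordinates those of the core.
RPS12, chrXV:1028909-1028918: taccattgtgCATCCGTACAtttgatttgt
RPS30B, chrXV:679012-679021: tgggaccataCATCCGTACAtattgtggac
RPS23B, chrXVI:794638-794647: cataaagtaaCATCCGAACAtctccaaaca
RPS7A, chrXV:505320-505329: aaccttatcaCACCCAAACAtatgatatgg
RPS12 and RPS30B carried the same 10-base core, and it lay 293 bases before the RPS12 start codon and 228 bases before that of RPS30B. Other members, among them RPS0B, RPS6A, RPS18A, RPS19A and RPS30A, held the identical core. Neither copy of RPS25 or RPS28 held either core in this window, which says nothing about binding of Rap1 there. In the 9 genes with a leader intron, that intron (308 to 557 bases) filled most or all of the window. Sequence ahead of it was searched in part or not at all, so the count of members with a core may be too low.

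JHD2 itself followed the labels: its level was 0 to 0.0486 FPKM in jhd2Δ YAD and 4.49 to 5.82 FPKM in WT YAD, 0 to 0.0446 FPKM in jhd2Δ YGD and 3.97 to 7.14 FPKM in WT YGD, and 0 in both jhd2Δ YAR cultures against 17.5 and 14.1 FPKM in WT YAR. OE cultures had 1503 to 2213 FPKM, against 27.6 to 35.8 FPKM in EV. The summed level of 7 markers of mating type a was 15830 to 18330 FPKM in jhd2Δ YAD and 46.5 to 145 FPKM in WT YAD, 6729 to 10470 FPKM in jhd2Δ YGD and 66.1 to 221 FPKM in WT YGD, and 5624 and 5666 FPKM in jhd2Δ YAR and 6304 and 6027 FPKM in WT YAR, as labelled. In the plasmid strains, labelled alpha, the same sum was 2756, 2307 and 751 FPKM in OE YAR and 6022, 3733 and 434 FPKM in EV YAR, while 5 markers of mating type alpha summed to 118, 110 and 585 FPKM in OE YAR and to 74.7, 93.3 and 1572 FPKM in EV YAR. Replicates 1 and 2 of both groups thus went against the label, EV replicate 3 had more of the alpha markers, and OE replicate 3 had both kinds. The third WT YGD culture stood apart among members as well: RPS27A read 253 FPKM there, against 1194 and 1237 FPKM in the other two, while RPS12 read 9725 FPKM, against 6307 and 5924 FPKM. The median YGD and OE differences are given with and without the third cultures.

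Members together made up 8.35 ± 0.232% of the FPKM in jhd2Δ YAD and 8.004 ± 0.292% in WT YAD (SD, n = 3 each). The denominator was the sum over rows with a status of OK in every replicate of the table, not over all rows. For WT YAD replicate 1 it was 1.39e+06 FPKM, against 1.53e+06 FPKM over all rows. For jhd2Δ YAD replicate 1 both sums were 1.48e+06 FPKM, so the shares depend on this choice. In YGD the share was 9.16 ± 0.403% in jhd2Δ and 9.81 ± 0.2497% in WT (SD, n = 3 each), and in OE YAR it was 7.74 ± 0.676%, against 7.63 ± 1.79% in EV YAR (SD, n = 3 each). In the jhd2Δ YAR table, with its intron-bearing rows, the share was 4.74 and 5.43% in jhd2Δ and 3.63 and 3.05% in WT. With this denominator, the groups overlapped in the other tables but not in this one. Over all rows, the jhd2Δ and WT shares in YAD would not overlap either. In these bulk samples, fewer cells making an mRNA and less of it per cell cannot be told apart.

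**Figure D1:**
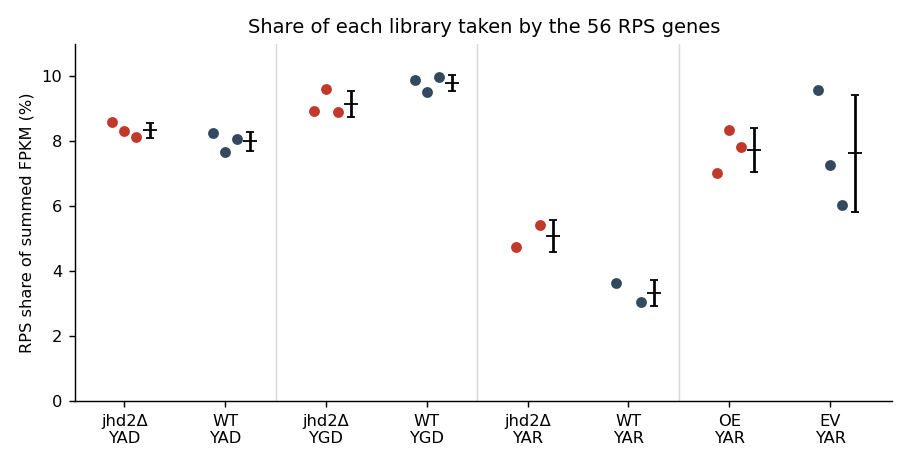
Share of the FPKM summed over rows of OK status that the 56 members took in each culture (percent, vertical axis), by group. Each culture is a point, with the group mean ± SD beside them. The 2 jhd2Δ YAR cultures (4.74 and 5.43%) sit above the 2 WT YAR cultures (3.63 and 3.05%), and with this denominator no other table separates its groups.

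Members differed widely in level although their proteins are needed in nearly equal numbers, and the copies of a pair supply their protein together. In WT YAD the group means ran from 123 FPKM for RPS9A, the minor copy for a protein of the body, to 10380 FPKM for RPS29B, which encodes a small zinc-binding protein of the head, an 84.3-fold range between single copies. RPS9B, the major copy beside RPS9A, read 1429, 1173 and 1343 FPKM in WT YAD. RPS27B read 8116 to 9688 FPKM in jhd2Δ YAD and 9328 to 10247 FPKM in WT YAD, and RPS14A 6099 to 6323 FPKM in jhd2Δ YAD and 5171 to 5864 FPKM in WT YAD. How reads were divided between near-identical copies is uncertain: of all 51-base windows of the coding sequence, the length of a read, 71.7% of those of RPS6A and RPS6B also occurred elsewhere in the genome (99.2% identical bases), with smaller shares for RPS4 (46.1%) and RPS24 (37.7%). For 26 members no window was shared, and the median over genes in pairs was 2.37%, so most copies could be told apart. The median coefficient of variation between replicates over the members was 4.97% in jhd2Δ YAD and 7.02% in WT YAD, 7.64% in jhd2Δ YGD and 19.9% in WT YGD, 10.1% in jhd2Δ YAR and 14.0% in WT YAR, and 13.2% in OE YAR and 26.1% in EV YAR.

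Within pairs, 1 copy often dominated. RPS14A gave 95.0 ± 0.197% of the RPS14 FPKM in jhd2Δ YAD and 93.6 ± 0.610% in WT YAD, and RPS22A gave 94.8 ± 0.217% and 93.7 ± 0.717% of RPS22 in the same order (SD, n = 3 each). The A copy was the minor one for RPS9 (9.85 ± 0.293% in jhd2Δ YAD, 8.56 ± 0.905% in WT YAD) and for RPS27 (10.95 ± 1.352% and 9.29 ± 0.696%). RPS30 was more even, with 41.9 ± 0.206% from the A copy in jhd2Δ YAD and 41.4 ± 0.370% in WT YAD. The balance of RPS28 was the one that differed most between the genotypes in YAD by the difference of the 2 copies' log2 fold changes (0.38), with 81.8 ± 0.591% from RPS28A in jhd2Δ and 77.5 ± 1.27% in WT, and no overlap between the groups.

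**Figure D2:**
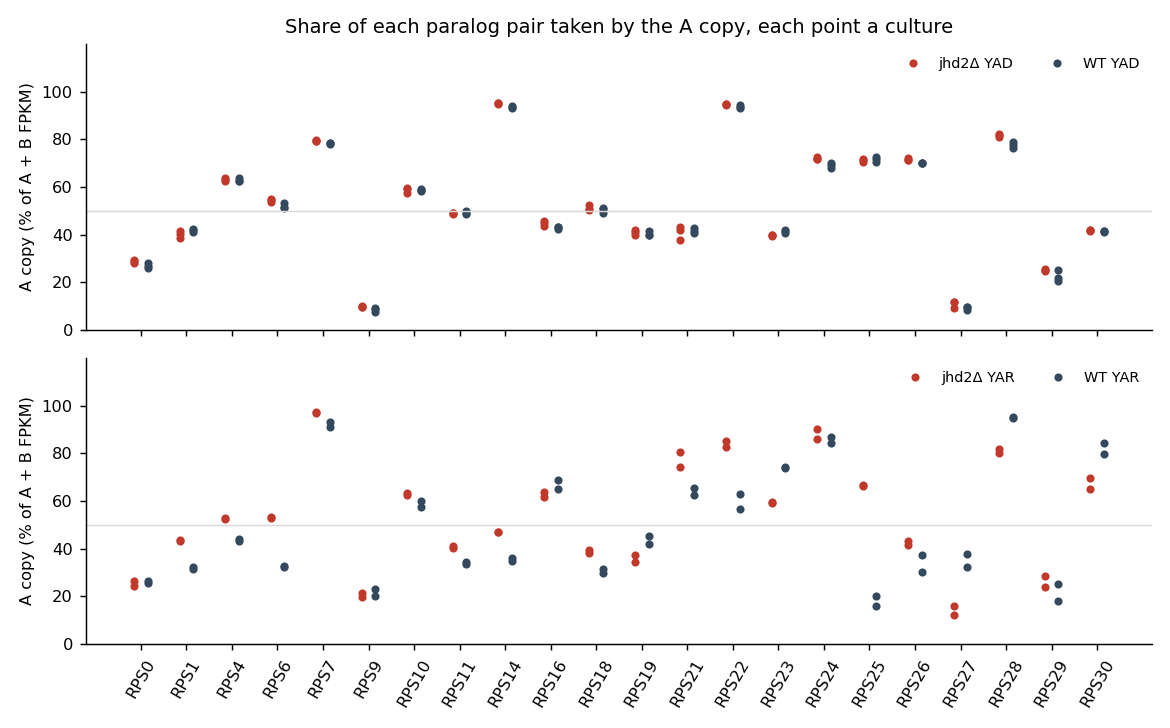
Share of each pair's FPKM that came from its A copy (percent), with a point for each culture of jhd2Δ and WT in YAD (upper panel) and in YAR (lower panel) and a grey line at equal shares (22 pairs shown). RPS14 and RPS22 lie high and RPS9 and RPS27 low in YAD, and the widest gap between jhd2Δ and WT in YAR is that of RPS25 (66.6% and 18.0%), for which the YAR rows are leader introns.

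In YAD, 1 of the 56 members, RPS29A, was called higher in jhd2Δ than in WT, which also differed in mating type, and none was called lower. The share called higher was close to that of all features, so the count is no result about the members. RPS29A, the minor copy of the head protein eS29, read 3825, 4324 and 3959 FPKM in jhd2Δ and 3409, 2784 and 2805 FPKM in WT, with no overlap (log2 fold change 0.49, SE 0.096, limma adjusted p = 0.0274). A call required an adjusted p under 0.05 over all 6184 features tested and a change of over 1.4-fold, and 1.68% of features were called higher and 4.04% lower in this comparison. The fold change of RPS29A, 1.405, lay just past that limit, it was called under 6 of 14 alternative settings and lost with any jhd2Δ culture or with WT replicate 2 or 3 left out, and its log2 fold change ran over them between 0.36 and 0.56 with adjusted p between 0.0264 and 0.11. RPS12, a single-copy head gene, had 5817, 5497 and 5430 FPKM in jhd2Δ and 4658, 3684 and 4248 FPKM in WT, and its change (0.48, adjusted p = 0.0404) did not reach 1.4-fold. RPS20, another head gene, had a difference of 0.41 with an adjusted p of 0.0716.

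The other members moved little in YAD. The median log2 difference over the 56 was 0.17, against 0.01 over all features, 47 lay above 0, and the range ended at -0.17 for RPS28B, which had 1197.0, 1223.9 and 1037.7 FPKM in jhd2Δ and 1373, 1344 and 1332 FPKM in WT (adjusted p = 0.357). Without adjustment, 16 members had a p under 0.05 in the higher direction and 0 in the lower one. Over all features these shares were 14% and 14.7%. In 19 members every jhd2Δ culture lay above every WT culture, and in 5 every one lay below, where 8.75% and 20.7% of all features did so. Medians by place were 0.22 for the head, 0.14 for the body and 0.20 for the platform. Among the pairs with the widest gaps between copies after RPS28, RPS14A differed by 0.25 and RPS14B by -0.13 and RPS22A by 0.32 and RPS22B by 0.03, none of them called.

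In YGD no member was called in either direction by limma, where 0.193% of 6211 features were called higher and 0.145% lower. Without adjustment, 0 members had a p under 0.05 in the higher direction and 1 in the lower one (3.65% and 3.2% of all features). The median log2 difference was -0.28 (all features 0.00), with a range of -0.63 for RPS21A to 0.24 for RPS11B. Without the third WT culture the median was -0.12, the range ran from -0.32 for RPS24A to 0.16 for RPS29B, and 0 members were called, with 0 higher and 10 lower at an unadjusted p under 0.05. In that fit 19 of 6231 features were called higher and 19 lower. Their share at the unadjusted p is not given, so the counts of 0 and 10 are no result about the members. RPS21A had 2449, 2546 and 2539 FPKM in jhd2Δ, against 3178, 2875 and 3968 FPKM in WT, and RPS11B had 1020, 1051 and 928 FPKM in jhd2Δ, against 1035, 1010 and 355 FPKM in WT, so that the third WT culture was the highest for RPS21A and the lowest for RPS11B. The copies with the widest gap were those of RPS30, the gene pair for a small basic body protein made as a ubiquitin-like fusion in mammals: RPS30A differed by -0.08 and RPS30B by -0.47. The share of RPS30A was 42.0 to 43.6% in jhd2Δ but 21.4 to 46.1% in WT, the lowest value being that of the third culture. Without that culture RPS30A differed by -0.11 and RPS30B by 0.03. Other wide gaps were those of RPS28 (A copy -0.59, B copy -0.28) and RPS23 (-0.30 and -0.61). Without the third WT culture the RPS28 copies differed by -0.11 and -0.31 and those of RPS23 by -0.15 and -0.13. RPS15 lay lowest of the 8 single-copy genes (-0.54, and -0.27 without that culture) and RPS20 highest (-0.05 and -0.09), although RPS12 came to 0.15 without it.

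**Figure D3:**
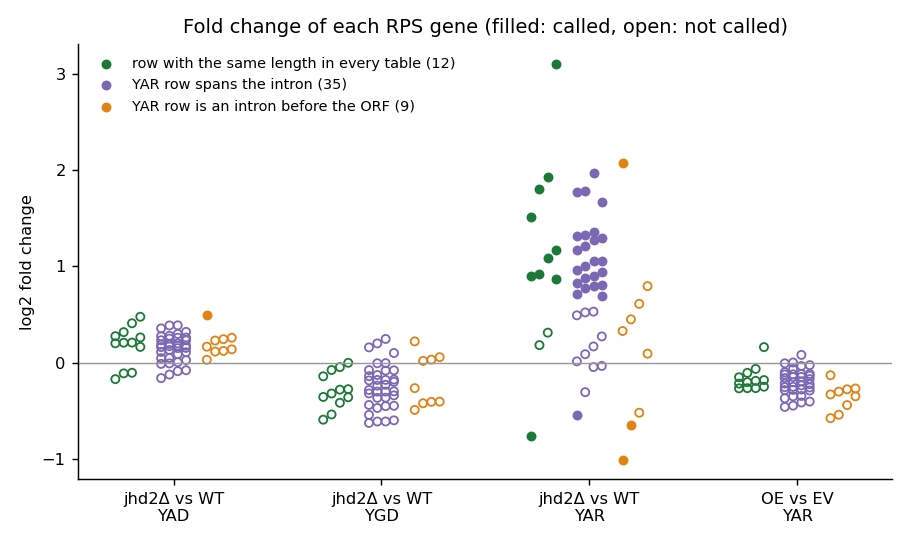
Log2 fold change of every member in the 4 tested comparisons (jhd2Δ over WT in YAD, YGD and YAR, OE over EV in YAR), one point per gene, filled where called and coloured by what the gene's row covers in the table of jhd2Δ and WT in YAR. The values run from -0.17 to 0.49 in YAD, from -0.63 to 0.24 in YGD, from -1.01 to 3.104 in YAR and from -0.58 to 0.16 for OE over EV.

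In YAR, deletion of JHD2 went with a higher level of 34 of the 56 member rows and a lower level of 4, where 13.8% of 5846 features were called higher and 8.6% lower. The median log2 difference over the members was 0.85, against -0.01 over all features. With libraries scaled to the sum of all genes other than ribosomal protein genes, 25 members were higher and 6 lower (median 0.54), where the median of all features was -0.30 and 371 features were higher and 1461 lower, in place of 805 and 503. Of the 12 rows with the coding transcript, 9 were higher, 1 was lower and 2 were not called (median 1.00), and these are the rows that speak of mRNA alone. Of the 35 rows that included the coding intron, 24 were higher and 1 lower (median 0.88). Of the 9 leader-intron rows, 1 was higher and 2 were lower (median 0.33). Groups of 2 do not constrain the spread well. Leaving out either WT culture left 1 in its group, and calls became far fewer. This held over all features as well as over the members, so the drop is not particular to the members. Leaving out a jhd2Δ culture changed the number of calls little. RPS28B and RPS30B were the members called higher under all 12 alternative settings.

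Among the 12 rows of coding transcripts, RPS28B changed most. It encodes the same small head protein, eS28, as RPS28A, and read 2073 and 2169 FPKM in jhd2Δ YAR, against 300 and 201 FPKM in WT YAR, an 8.60-fold difference (log2 3.104, SE 0.233, limma adjusted p = 3.49e-07). RPS28A read 8332 and 9847 FPKM in jhd2Δ and 5678 and 4037 FPKM in WT (log2 0.92, SE 0.256, adjusted p = 0.0189). The A copy therefore gave 81.0 ± 1.32% of RPS28 in jhd2Δ and 95.1 ± 0.193% in WT (SD, n = 2 each), with no shared 51-base window between the copies and 88.2% identical bases. In the controls of other tables RPS28B read 1332 to 1373 FPKM in WT YAD, 1241, 1310 and 660 FPKM in WT YGD and 961, 1029 and 1924 FPKM in EV YAR, values that are set side by side across tables normalised separately. The share from RPS28A in WT YAR stands beside 77.5 ± 1.27% in WT YAD, 85.35 ± 6.62% in WT YGD (92.8% in replicate 3) and 74.0 ± 8.82% in EV YAR (SD, n = 3 each), and that in jhd2Δ YAR beside 81.8 ± 0.591% in jhd2Δ YAD.

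**Figure D4:**
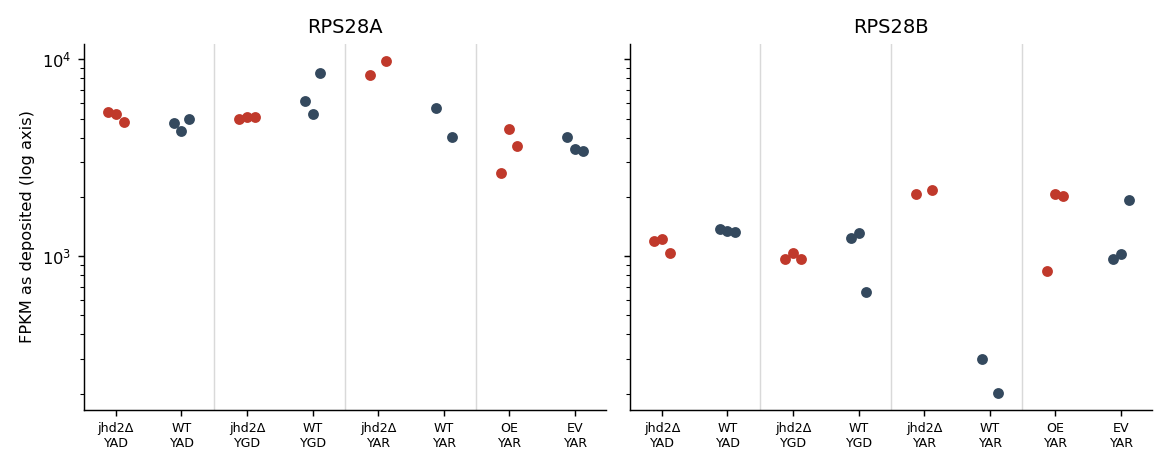
FPKM of RPS28A (left) and RPS28B (right) in every culture, on a logarithmic axis, by group, with a point for each culture. RPS28B lies at 300 and 201 in WT YAR, under the lowest culture of any other group, and at 2073 and 2169 in jhd2Δ YAR.

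No 51-base window of the single-copy genes occurs elsewhere in the genome, and in YAR 6 of these 8 were higher and 1 lower. RPS12 read 5845 and 6722 FPKM in jhd2Δ and 1946 and 1398 FPKM in WT (log2 1.93, adjusted p = 7.51e-05). RPS3 and RPS2 encode proteins at the mRNA entry channel, and RPS3 read 1212 and 1366 FPKM in jhd2Δ and 417 and 327 FPKM in WT (1.80, adjusted p = 5.33e-05). RPS2 read 3288 and 3887 FPKM in jhd2Δ and 1480 and 1067 FPKM in WT (1.51). RPS31, which encodes a fusion of ubiquitin with its ribosomal protein, read 6742 and 7797 FPKM in jhd2Δ and 3580 and 3273 FPKM in WT (1.08). RPS13 (0.90, in a row with its intron) was higher too. RPS20 read 4923 and 4644 FPKM in jhd2Δ and 4102 and 3623 FPKM in WT, a difference of 0.31 that was not called (adjusted p = 0.371).

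RPS15 went the other way. This essential head gene, whose protein reaches the decoding centre, read 206 and 229 FPKM in jhd2Δ and 405 and 338 FPKM in WT (log2 -0.77, SE 0.200, limma adjusted p = 0.0138). It was the only coding-transcript row that was lower, and its row model is the same in all tables. The call was lost under limma without trend and robust (adjusted p = 0.0597) and with a replicate block in limma (adjusted p = 0.0927). It was also lost without jhd2Δ replicate 1 (log2 -0.69), WT replicate 1 (-0.64) or WT replicate 2 (-0.89). No member was called lower without trend and robust, with the replicate block or with either WT culture left out. This bears on RPS22B, RPS25B and RPS27A below as well. RPS1A and RPS1B, for a platform protein, split: RPS1A read 1763 and 2063 FPKM in jhd2Δ and 1143 and 911 FPKM in WT (0.90, adjusted p = 0.0116), whereas RPS1B read 2261 and 2688 FPKM in jhd2Δ and 2381 and 1987 FPKM in WT, with overlap (0.18, adjusted p = 0.615).

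Rows that spanned the intron carried most of the calls. RPS30B read 67.8 and 70.3 FPKM in jhd2Δ YAR and 15.9 and 17.9 FPKM in WT YAR (log2 1.97, SE 0.173, limma adjusted p = 1.96e-06), and RPS30A 155 and 132 FPKM in jhd2Δ and 84.5 and 70.2 FPKM in WT (0.88). RPS23B, the second copy for a protein of the decoding centre, read 666 and 777 FPKM in jhd2Δ and 218 and 199 FPKM in WT (1.78), and RPS7A 861 and 962 FPKM in jhd2Δ and 307 and 231 FPKM in WT (1.77). RPS7B had 25.8 and 25.2 FPKM in jhd2Δ and 22.9 and 22.4 FPKM in WT, a difference of 0.17 that was not called. RPS27 moved in opposite directions, with RPS27A at 78.6 and 73.3 FPKM in jhd2Δ and 116 and 107 FPKM in WT (-0.55, adjusted p = 0.0338) and RPS27B at 416 and 520 FPKM in jhd2Δ and 244 and 176 FPKM in WT (1.16). RPS14A and RPS14B, the pair for the protein that represses RPS14B splicing, gave 81.5 and 95.1 FPKM in jhd2Δ and 44.3 and 31.9 FPKM in WT for RPS14A (1.21, adjusted p = 0.0005001) and 91.2 and 107 FPKM in jhd2Δ and 78.1 and 60.1 FPKM in WT for RPS14B, which was not called (0.52, adjusted p = 0.0576). Both copies of RPS9 were called higher, RPS9A by 0.70 and RPS9B by 0.81. In these rows a change of spliced mRNA and a change of intron-bearing RNA cannot be told apart.

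The leader-intron rows include the gene pair that differed most between copies. The RPS25A interval read 70.7 and 45.2 FPKM in jhd2Δ YAR and 11.6 and 13.8 FPKM in WT YAR (log2 2.08, limma adjusted p = 3.96e-05), and the RPS25B interval 35.1 and 22.9 FPKM in jhd2Δ and 61.5 and 55.0 FPKM in WT (-1.01). RPS25 encodes a head protein known for its part in initiation at internal ribosome entry sites, and these values are those of the leader introns printed above, not of its mRNA. Coding transcripts of RPS25 were not measured for jhd2Δ in YAR, so whether its mRNA shows such a contrast there is not known. In YAD, with glucose and a mating type that differed with genotype, no such contrast was seen in the coding transcripts. There RPS25A gave 71.3 ± 0.637% of RPS25 in jhd2Δ YAD and 71.6 ± 1.09% in WT YAD (SD, n = 3 each). RPS22 was split between row types, with the RPS22A transcript at 623 and 796 FPKM in jhd2Δ and 382 and 257 FPKM in WT (1.17) and the RPS22B leader intron at 130 and 138 FPKM in jhd2Δ and 226 and 195 FPKM in WT (-0.65, adjusted p = 0.0219). The intron rows of RPS29A and RPS26A were among the lowest of all members, with RPS29A at 37.6 and 23.4 FPKM in jhd2Δ and 21.5 and 13.0 FPKM in WT and RPS26A at 38.2 and 31.5 FPKM in jhd2Δ and 27.8 and 18.0 FPKM in WT, neither called.

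**Figure D5:**
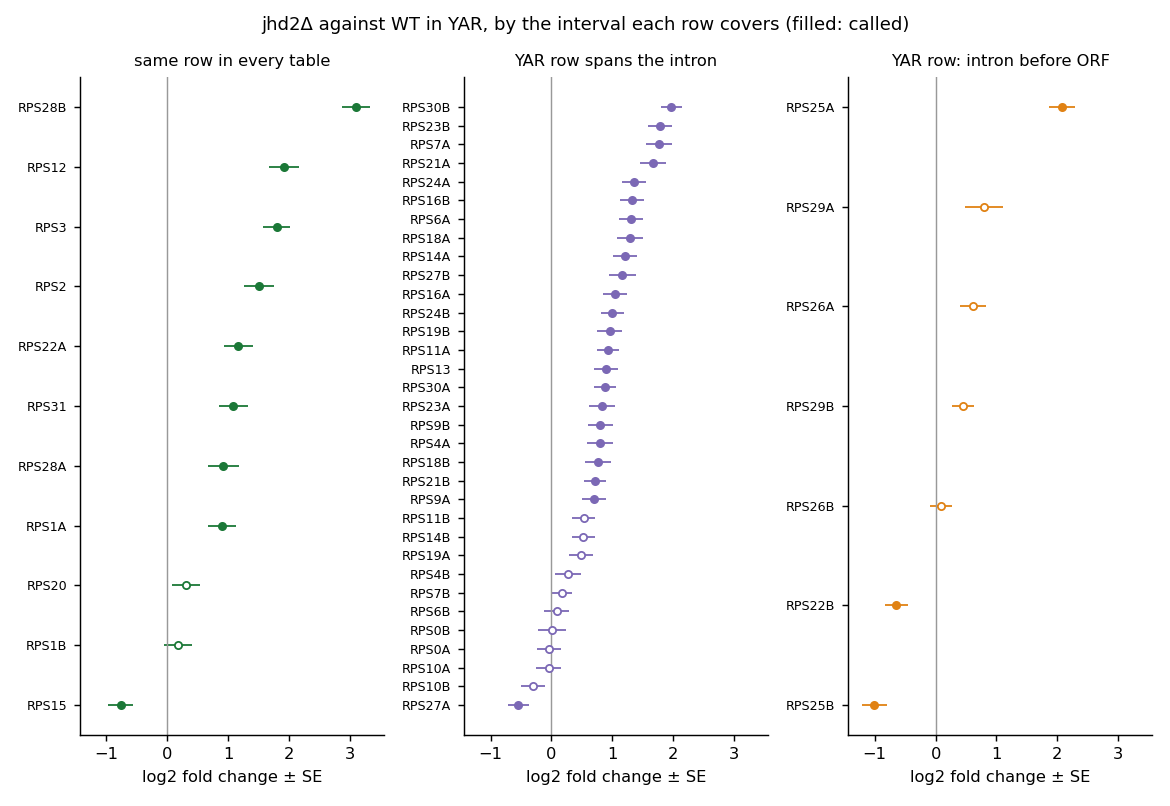
Log2 fold change of each member between jhd2Δ and WT in YAR (horizontal axis, point ± SE from limma, filled where called), for 51 members in panels by what the row covers. RPS28B is highest and RPS15 lower among coding transcripts (left), RPS27A is lower among rows with the intron (middle), and RPS25A is higher and RPS22B and RPS25B are lower among leader introns (right).

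By place in the subunit, 14 of 22 head genes were higher and 2 lower in YAR (median 0.94), 18 of 28 body genes were higher and 2 lower (0.82), and 2 of 6 platform genes were higher and none lower (0.57). Of the 23 members with a Rap1 core 15 were higher and 0 lower (median 0.96), and of the 33 without one 19 were higher and 4 lower (0.81). These splits mix row types: all 9 leader-intron rows lacked a core, and 21 of the 23 rows with a core spanned the intron. In those 9 genes the window searched for a core was mostly or wholly the leader intron, so a core ahead of it could be missed. Among the 35 rows that spanned the intron, 14 of 21 with a core were higher and 0 lower (median 0.96), and 10 of 14 without one were higher and 1 lower (0.82). Of the 24 pairs, 9 had both copies called higher, and 3 had copies called in opposite directions (RPS22, RPS25 and RPS27). In 43 members both jhd2Δ cultures lay above both WT cultures, and in 6 both lay below, where 31.9% and 32.3% of all features did so. By row type these were 10 and 1 of the 12 coding transcripts, 28 and 2 of the 35 rows with the intron, and 5 and 3 of the 9 leader introns.

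The effect of the deletion was also compared between media through the difference of the log2 fold changes, with the spread of all 4 groups. The effect in YAR exceeded that in YAD for 30 members and fell below it for 5 (among them RPS25B, RPS27A, RPS22B and RPS15), where 13.8% of 6209 features were called higher and 9.24% lower. Among the 12 members whose rows were the same in both tables, 8 were higher and 1, RPS15 (-0.66, adjusted p = 0.0223), was lower. RPS28B differed most (3.28, limma adjusted p = 2.7e-05), followed by RPS25A (1.96, adjusted p = 0.000952) and RPS7A (1.66, adjusted p = 0.000832), and the rows of RPS25A and RPS7A did not cover the same bases in the 2 tables. WT was of mating type alpha in YAD and of type a in YAR, so medium and mating type of the control cannot be told apart, and the number of replicates differed too. Between YGD and YAD no member was called by limma, where 0.0643% of 6225 features were called higher and 0% lower, and 0 and 13 members had an unadjusted p under 0.05 in the higher and lower directions (4.22% and 5.33% of all features). The median difference there was -0.43. Without the third WT YGD culture it was -0.30, with 0 and 27 members at that p and 0 called, where 4 of 6232 features were called higher and 1 lower. The share of all features at the unadjusted p is not given for that fit, so those 2 counts are no result about the members.

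Overexpression of JHD2 in YAR went with no called member in either direction by limma, where 0.0158% of 6331 features were called higher and 0% lower. The only feature called was JHD2 itself. At an unadjusted p under 0.05 there were 0 higher and 1 lower (6.97% and 7.31% of all features), RPS22B, with 529, 469 and 428 FPKM in OE and 742, 594 and 608 FPKM in EV (log2 -0.58, limma adjusted p = 0.296). This row was the coding transcript, not the intron. The median over the members was -0.22 (all features -0.01) and 53 of 56 lay below 0, with a range of -0.58 to 0.16. The top of the range was RPS28B, at 843, 2061 and 2018 FPKM in OE and 961, 1029 and 1924 FPKM in EV (adjusted p = 0.891). The median was -0.32 without the third culture of both groups, but 0.07 when libraries were scaled to the sum of all genes other than ribosomal protein genes, a scaling that moved the median of all features to 0.26. The sign of the members' median thus depended on the scaling, while it lay below the median of all features in both scalings. RPS22A differed by -0.15 and RPS28A by -0.19, and the single-copy genes lay between -0.27 (RPS3 and RPS20) and -0.04 (RPS13), none called. RPS10A shows the spread within EV, with 6084, 4264 and 1834 FPKM, against 3929, 2857 and 2409 FPKM in OE.

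In YAD, where the authors' group FPKM allowed no test, 1 member was past 1.4-fold between OE and EV: RPS29A, at 1481 FPKM in OE and 2090 FPKM in EV (ratio 0.709). Of 6253 features, 2.16% were past 1.4-fold in the higher direction and 6.65% in the lower one. In all, 52 members had a ratio below 1 and 4 above, and the median ratio was 0.909, against 0.918 over all features. The smallest ratio after that of RPS29A was that of RPS14B (0.791), and the largest were those of RPS21B (1.13), RPS10B (1.05) and RPS21A (1.05). Between EV YAR and EV YAD, 37 members were past 1.4-fold lower in YAR and 0 higher, where 67% of 6264 features were lower and 7.06% higher. Centred on the median of all features, 9 members were higher and 0 lower. The median ratio of the members was 0.641 (all features 0.586), from 0.472 for RPS28A, at 2052 FPKM in YAR and 4348 FPKM in YAD, followed by RPS30A (0.495) and RPS30B (0.499). RPS9A was near the upper end, at 0.928.

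Other genes of the small subunit's life cycle were counted in the same fits. Over all features, 13.8% were called higher and 8.6% lower in jhd2Δ YAR, and 1.68% and 4.04% in jhd2Δ YAD. Among 82 large subunit protein genes, 46 were higher and 4 lower in jhd2Δ YAR (median 0.70), 0 and 2 in jhd2Δ YAD (0.13), and none in YGD or with OE. Among 18 factors that assemble the 40S subunit, none was higher and 4 were lower in jhd2Δ YAR: RIO2, an atypical kinase of late maturation (-0.69), BUD23, the 18S rRNA methyltransferase (-0.62), TSR4, a chaperone of Rps2 (-0.56), and HRR25, a casein kinase (-0.53). In jhd2Δ YAD HRR25 (-0.62) and RRP12 (-0.61), an export factor, were lower. Of 18 regulators of ribosomal protein genes, HMO1 (0.60) was higher and SCH9 (-0.77) and TOD6 (-0.66) were lower in jhd2Δ YAR. ASC1, which encodes the 40S-bound RACK1 homologue and holds an intron, was higher (1.65), as were the ubiquitin genes UBI4 (0.95), RPL40A (0.91) and RPL40B (0.70), and LSO2, a ribosome-bound recovery factor, was lower (-1.15). Of 19 initiation factors that act on the 40S subunit, SUI3 (0.80) was higher and TIF4632 (-0.58) lower. Beside the shares of all features, the few calls among regulators, initiation factors and, in YAD, large subunit genes are no result about those lists. The YAR counts share the libraries and row models of the YAR table.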

How the data were processed

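RNA was depleted of rRNA and made into strand-specific libraries read from 1 end. The deposited FPKM values were made by the authors with Cufflinks 2.1.1 and Cuffdiff 2.1.1 on a set of yeast transcripts, from alignments by TopHat2 2.0.12 (Bowtie2 2.1.0) of reads whose quality had been assessed in FastQC 0.10.1, as their methods and processing notes state. Strand settings are not given in the sources used here. Whole reads could not be recovered from FPKM, so the depth is unknown and no counting interval is given.

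Members were matched by name, or by systematic ID for 2 members in the jhd2Δ YAR table. Coordinates of 5996 of 6004 coding genes equalled RefSeq R64. In each table, FPKM were scaled by the median of ratios, log2(FPKM + 1) was fitted over all features averaging 1 FPKM or more by limma 3.58.1 in R 4.3.3 (lmFit, eBayes with trend and robust, two-sided, Benjamini-Hochberg adjustment), and fold changes are on that scale. The fit was tested on simulated data. Called features had an adjusted p under 0.05 and a change over 1.4-fold. Rows with a deposited status other than OK in any replicate were left out (1, 2, 23 and 1 in the YAD, YGD, YAR and OE tables).

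Members and lists were chosen with earlier results of these data known. Genes named by rule were the 3 largest rises and falls among calls, the 4 pairs with the widest gap between copies, the single-copy genes, the 3 highest and 3 lowest members of each comparison, the 3 largest and smallest ratios of the authors' groups, both copies of RPS9, RPS14 and RPS28, and called genes of the lists (at most 4). Others (RPS1, RPS7, RPS10A, RPS21, RPS23B and RPS11B in places) were chosen after their values were seen. The comparison tables also hold the authors' fold changes, p-values and q-values, which were not used. A replicate sheet named for OE in YAD equalled the YAR sheet in 7041 of 7041 rows, and its 6 columns were not used. Alternatives were other scalings, pseudocounts of 0.1 and 10, a minimum of 10 FPKM, no minimum, limma without its trend and robust options, a replicate block, paralogs summed, and each replicate left out (YGD members without WT replicate 3 were given after seeing the data). The subset with one row model and the fit without replicate 3 of OE and EV were chosen after seeing the data. Equal replicate numbers did not pair samples. Some members entered every count and fit but are not reported by name here.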

Additional observations from a re-analysis of the deposited data

Results flagged for a closer look

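The effect of the JHD2 deletion differed between YAR and YAD by a test of the difference itself (limma, adjusted p under 0.05 over 6209 features and over 1.4-fold). It was higher in YAR for 30 of the 56 members and lower for 5. RPS28B had the widest difference of log2 fold changes (3.28), in a row of the same coding transcript in both tables. RPS25A (1.96) was a leader intron in the YAR table and a coding transcript in the YAD table, and RPS7A (1.66) included its intron in the YAR table alone. No cause of these differences was tested, and the medium, the mating type of WT and the row models cannot be told apart for members whose rows differ.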

How the results depend on the processing

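The 1 member higher in jhd2Δ YAD became 0 with FPKM as deposited, with scaling to the sum of other genes, with the replicate block and with paralogs summed, and it was 0 to 1 with each culture left out. In YAR, 34 higher and 4 lower members became 21 and 0 under limma without trend and robust, and 9 and 0 with the replicate block. Over all features, 805 higher and 503 lower became 289 and 121, and 124 and 50, in the same order. The members were 21 and 1 of 32 proteins with paralogs summed, and 9 and 1 over the 12 rows with the same model in every table (fewer genes). With each culture left out they were 2 to 35 and 0 to 3, the lone culture of a group being assumed to vary like the other group. For YAR against YAD, the 5 lower members became 2 with the replicate block and 3 to 5 with each culture left out, 30 higher members became 22 to 33, and over the 12 shared rows they were 8 and 1, while 20 higher and 2 lower members were called under all 18 alternatives. In the authors' group values, the 1 member past 1.4-fold for OE in YAD became 0, and for EV between media 37 lower members became 0 with 9 higher, when centred on all features. The cause of these shifts was not tested apart from the smaller gene sets. Numbers did not pair the cultures: deviations of cultures with the same number correlated at -0.108 to 0.174, and not all pairs of any table were over 0.1. Of the values given for single members, none changed direction among those called. Scaling to other genes moved the median of all features by -0.11 in YAD, 0.11 in YGD, -0.30 in YAR and 0.26 for OE. YGD and OE calls were 0 under each alternative. The main fits called few of all features, 12 higher and 9 lower in YGD and JHD2 alone for OE. The 0 calls therefore do not show that the members were unchanged. The unknown depth, 2 cultures per group and intron rows in the YAR table, and a mating type that differs with genotype in YAD and YGD limit these results.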
